A study of Sus scrofa with 6 samples.

Results

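The 97 genes described here encode factors of pre-mRNA splicing, RNA-binding regulators and RNA helicases. They were chosen by name: each has a probe set, a group of short DNA probes for 1 transcript, whose single gene symbol begins with HNRNP or HNRP, SRSF or SFRS, SF3, SNRP, PRPF, RBM, DHX or DDX, the last 3 followed by a number. The germ cell helicase DDX4 is not among them. The rule gave 153 probe sets, and a gene with several is represented by the one brightest on average over all 6 arrays, a choice that took no difference between stages into account. The 97 genes are a small share of the 6765 genes that the array names by a single symbol. They comprise 17 hnRNP genes, 11 SR protein genes, 7 SF3 genes, 10 SNRP genes, 9 PRPF genes, 19 RBM genes, 4 DHX genes and 20 DDX genes. Of these, 60 have 1 probe set and 37 have 2 or more, and a further 4 probe sets were left out because they carry several symbols.

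Introns are removed from pre-mRNA by the spliceosome, which is built stepwise from small nuclear ribonucleoproteins whose rings of Sm proteins are encoded by SNRP genes, from the SF3 complexes that hold the branch site, and from PRPF proteins that join with the tri-snRNP or act during catalysis. SR proteins bind exons and favour splice site use, hnRNP proteins coat nascent transcripts and often oppose it, and many RBM proteins modulate the choice of exons. DExD/H-box helicases, named DDX or DHX, remodel RNA and RNA-protein complexes in splicing, ribosome assembly, export, translation and decay.

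RNA came from ovarian follicles of prepubertal gilts, which are young female pigs before puberty, sorted by morphology and diameter into stages titled primordial, middle and last. Each stage has 2 arrays titled biological replicates. The labels used here name no treatment or genotype, and all 6 arrays share tissue, extraction and labelling. A separate description field calls every sample primordial, so the stage names used here rest on the titles alone. Whether replicates were separate animals or pools is not given in the sources used here, so each p-value measures only the spread between these arrays. RNA was taken from whole follicles, so fewer cells of a type and less RNA per cell cannot be told apart.

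Median signal over all probe sets was 119.3 and 125.4 for primordial, 169.9 and 165.0 for middle, and 140.3 and 150.6 for last arrays. Across tested probe sets, log2 signals of replicate arrays correlated at 0.955 to 0.973, and those of different stages at 0.721 to 0.882. Marker genes of several cell types and of stress differed widely. The signals of 11 oocyte markers, of 12 listed, summed to 482 to 495 on the primordial, 20064 and 21821 on the middle and 888 and 907 on the last arrays, so the primordial arrays lack the high oocyte transcripts of the middle arrays. Sums over 9 immune markers, of 10 listed, were 39145 and 42058 on the primordial arrays and 1046 to 3777 on the other arrays. Granulosa cell markers, 11 of 11, summed to 40681 and 53801, then 13677 and 19756, then 65530 and 59412 in the order primordial, middle and last. Single granulosa markers went in opposite directions. Of the 9 tested, 2 were called higher and 5 lower in middle than in primordial follicles, with differences of -4.56 to 3.54. Between last and middle, 5 were called higher and 3 lower. Stromal fibroblast markers, 4 of 6 listed, summed to 428 and 535 on the primordial arrays and to 12301 to 19365 on the others. Smooth muscle markers, 4 of 5 listed, summed to 4239 and 3446, then 6511 and 7271, then 26757 and 26403. All 4 were called higher in last than in either other stage. Theca markers, 6 of 6, summed to 6390 and 6021, then 3390 and 4699, then 19793 and 22868. All 6 were called higher in last than in middle, and 3 were called higher and 1 lower in middle than in primordial follicles. Surface epithelium markers, 4 of 4, summed to 467.5 and 350.5, then 1347 and 1381, then 197 and 236.5. Stress and immediate-early genes, 9 of 10 listed, summed to 123441 and 91442, then 39785 and 36216, then 95705 and 112642; all 9 were called lower in middle than in primordial follicles and 8 of them higher in last than in middle. No marker of these lists was at 0 on all arrays. Control probe sets for the 3′ and 5′ ends of actin differed by 3.38 ± 0.25 (log2, SD, n = 2) on the primordial arrays, 4.60 ± 0.54 for middle and 3.73 ± 0.23 for last. For GAPDH these differences were 3.06 ± 0.53, 3.04 ± 0.35 and 1.88 ± 0.024, and for EF1a 0.84 ± 0.24, 1.10 ± 0.33 and 0.76 ± 0.088, in the same order. The part of cell composition, stress genes and RNA integrity in the differences below was not tested.

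Stages are compared as differences of log2(signal + 16), with the standard error of the limma fit, and a member is called where its Benjamini-Hochberg adjusted p, taken over 14399 probe sets, is under 0.05. Of the 97 members, 94 passed the filter on dim probe sets. DDX25, DDX54 and DDX60 did not, and their signals ranged from 8.5 to 132.7. The comparisons share arrays: the primordial arrays enter both contrasts against primordial, and the middle and last arrays likewise enter a pair each.

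Between the middle and the primordial arrays 36 of 94 members were called (38.3%), 15 higher and 21 lower. Over all 5432 genes tested the shares were 45.5% called, 22.9% higher and 22.5% lower, so the number of calls is not a result about this set. Between the last and the middle arrays 8 members were called (8.51%), 3 higher and 5 lower, against 16% of all genes, 8.8% higher and 7.23% lower. Between the last and the primordial arrays 27 members were called (28.7%), 10 higher and 17 lower, against 32.9% of all genes, 17.2% higher and 15.8% lower. The F-test for any stage difference called 38 members (40.4%), against 48.6% of all genes. These counts moved with single arrays. The counts from fits without 1 array, here and by subfamily below, have no share over all genes beside them. They are a limit on the calls and no result about these members. Where such a count names 1 direction alone, it is not the total. In a fit without 1 array its stage keeps a single array with no spread of its own, which is taken to vary like the other stages. In the first comparison 21 calls (9 higher, 12 lower) were made without primordial replicate 2, 22 (9 higher, 13 lower) without middle replicate 1, and 13 lower calls without primordial replicate 1. Without middle replicate 1 only 1 call was made between last and middle. Without middle replicate 2 that comparison gave 5 higher and 3 lower calls, and without last replicate 1 it gave 2 lower calls. Between last and primordial, 10 calls (5 higher, 5 lower) were made without primordial replicate 1 and 9 (6 higher, 3 lower) without primordial replicate 2. Without last replicate 1 there were 6 higher calls in that comparison, and without last replicate 2 there were 11 lower calls. The F-test called 23 and 20 members without primordial replicate 1 and 2, and 24 without middle replicate 1.

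The direction of the calls depended on how arrays were scaled to each other. Centring each array on its median moved the median difference of all tested probe sets from 0.22 to -0.20 between middle and primordial, and quantile normalization moved it to 0.03. Calls over all 14399 probe sets tested were 4275 higher and 2546 lower between middle and primordial as deposited, 3309 and 2995 after quantile normalization, and 2436 and 4228 after centring. The members' calls in that comparison were 17 higher and 17 lower after quantile normalization, and 7 higher and 43 lower after centring. In the other comparisons centring gave 6 higher and 2 lower between last and middle, and 6 higher and 28 lower between last and primordial. Centring shifts all probe sets of an array alike, and counts over all probe sets are not given for these comparisons. Their splits are thus no result about the members. The members' median difference between middle and primordial was -0.11 as deposited, 0.05 after quantile normalization and -0.52 after centring, and the median over all genes as deposited was 0.06. Medians of last minus middle and last minus primordial were -0.03 and -0.06 for the members, against 0.02 and 0.06 for all genes.

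The spread over stages is given as a description, with no test. The median range of a member's 3 stage means was 0.62, against 0.74 over all genes. A range above 1 was seen for 17 members (18.1%), against 34.9% of all genes, and a range under 0.5 for 35 members (37.2%), against 31.3%. The gap between replicates had medians of 0.16, 0.23 and 0.23 for the members on primordial, middle and last arrays against 0.23, 0.25 and 0.27 for all genes. Replicates of the compared stages failed to overlap for 70, 44 and 62 of the 94 members in the order middle against primordial, last against middle and last against primordial, beside 76.1%, 57.6% and 69.1% of all genes. The primordial stage was the highest of the stages for 43 members (45.7%), against 36.1% of all genes, and the lowest for 32, against 43.7%.

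**Figure D1:**
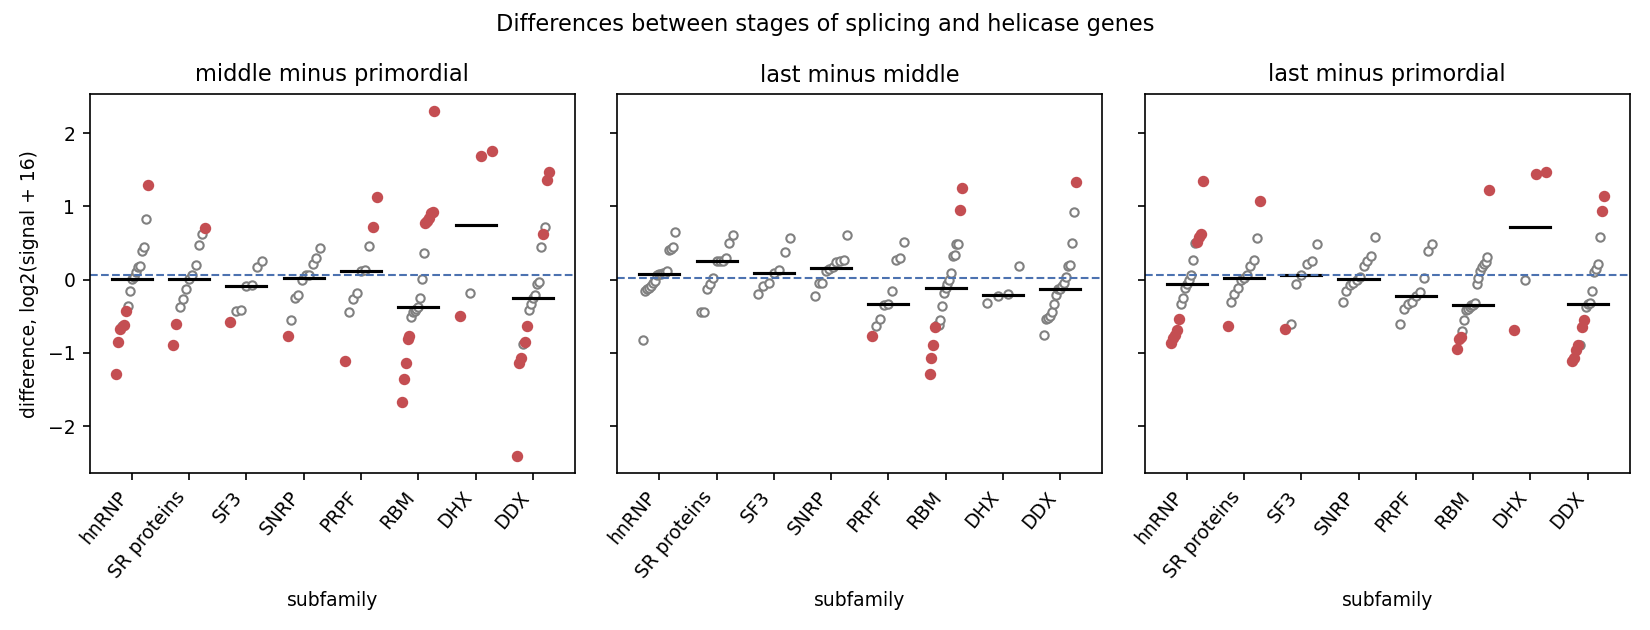
Difference between stages on the log2(signal + 16) scale for each of the 94 tested members, by subfamily. Filled points were called by limma, open points were not, black bars are subfamily medians, and the dashed line is the median over all genes tested; between middle and primordial the points run from -2.41 to 1.48 for DDX and from -1.67 to 2.30 for RBM, against -0.77 to 0.44 for SNRP.

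Median stage range differed by subfamily: 0.27 for the SNRP genes, 0.43 for SF3, 0.53 for PRPF, 0.56 for the SR proteins, 0.61 for hnRNP, 0.80 for RBM, 0.88 for DDX and 1.19 for the 4 DHX genes. The difference between subfamilies has no test, since genes are not replicates. The DHX value rests on DHX29 (range 1.76), which passed the filter on dim probe sets only through its middle and last arrays. The other DHX genes had ranges of 1.69 (DHX9), 0.68 (DHX15) and 0.19 (DHX30). The place of DHX in this order is thus no result. Between middle and primordial, the medians of RBM (-0.37) and DDX (-0.25) were below 0 and that of DHX (0.75) above 0, and these signs held under quantile normalization and under centring. The DHX median was -0.19 when the lowest 60% of probe sets were dropped, which removes DHX29. Medians of the other subfamilies had no stable sign: they lay between -0.08 and 0.12 as deposited, between 0.06 and 0.32 after quantile normalization, and between -0.50 and -0.29 after centring.

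**Figure D2:**
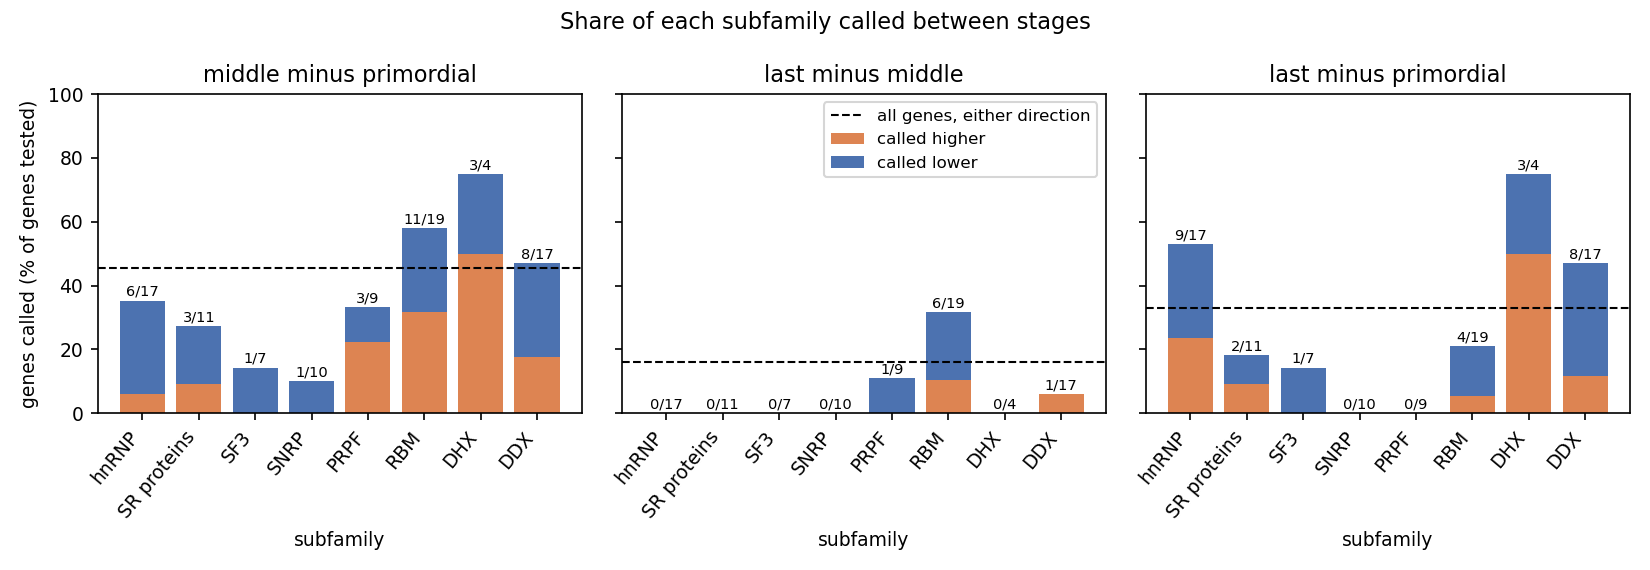
Percent of the tested genes of each subfamily called higher or lower in each comparison, with the number called over the number tested above each bar. The dashed line is the percent of all tested genes called in either direction, at 45.5%, 16% and 32.9% from left to right.

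The SNRP genes, for the core of the spliceosome, had the narrowest median range of the 8 subfamilies. Of 10 SNRP genes 1 was called lower in middle than in primordial follicles (10%, against 45.5% of all genes). None was called by limma in the other comparisons, where an unadjusted p under 0.05 was seen for 1 gene (last against middle) and 0 genes (last against primordial). Over all genes 16% and 32.9% were called there. The range and counts are of the probe sets used. A dimmer SNRPA1 set was called lower in middle (-1.33) and last (-2.19) than in primordial, and in last than in middle (-0.85). A dimmer SNRPN set was called higher than primordial in middle (1.14) and last (0.89). SNRPG, a member of the Sm ring, read 5829 and 7329 on the primordial arrays, 6219 and 6817 on the middle arrays, then 7484 and 5305 on the last. Its stage means spanned 0.05, less than the gap between its replicates, and the F-test gave an adjusted p of 0.965. SNRPD1, another Sm protein gene, read 6453 and 6706, then 5481 and 5909, then 8101 and 5585. The last arrays of SNRPD1 enclosed both primordial values (F-test adjusted p = 0.476). SNRPB, which encodes the Sm proteins B and B′, was the called gene, at 2099 and 2143, then 975 and 1562, then 2112 and 1709.6. SNRPB fell by 0.77 ± 0.24 from primordial to middle (adjusted p = 0.0257). Its middle values lay below all others, but the call was lost without primordial replicate 1 (adjusted p = 0.0896), primordial replicate 2 (0.102) or middle replicate 1 (0.176), over a range of 0.00432 to 0.176 for all alternatives run.

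SF3 genes, whose products belong to the U2 snRNP, gave a single called gene of 7 in each contrast against primordial. The share was 14.3% in both, against 45.5% of all genes for middle and 32.9% for last. None was called between last and middle (1 by limma's unadjusted p under 0.05), against 16% of all genes. SF3B1, which contacts the branch site, read 9781 and 8483 on the primordial arrays, 6516 and 5679 on the middle arrays, then 5084 and 6448 on the last. All of its middle and last values lay below its primordial values. SF3B1 fell by 0.58 ± 0.17 to the middle stage (adjusted p = 0.0194) and by 0.67 ± 0.17 to the last stage (adjusted p = 0.0156). The first call was lost without primordial replicate 1 or middle replicate 2, with quantile normalization (0.203) or without the intensity trend (0.0668). The second was lost without primordial replicate 1, last replicate 1 or the intensity trend (0.0563). A mean over both SF3B1 probe sets gave no call, with adjusted p of 0.575 and 0.752, the highest over all alternatives, against lowest values of 0.000908 and 0.00297. SF3B6, the branch-site protein also called p14, had a stage range of 0.13 (F-test adjusted p = 0.773). SF3B5 read 2851 and 2905, then 2252 and 3278, then 4237 and 3863, highest on both last arrays, with an F-test adjusted p of 0.0691.

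PRPF genes moved in both directions. Of 9 tested, 2 were called higher and 1 lower in middle than in primordial follicles (33.3%, against 45.5% of all genes). Between last and middle 1 was called lower (11.1%, against 16%). None was called between last and primordial (2 by limma's unadjusted p under 0.05), against 32.9% of all genes. PRPF39, a U1 snRNP associated factor, read 885 and 726, then 2003 and 1571, then 1122 and 1148. Its middle values exceeded all others. PRPF39 rose by 1.13 ± 0.21 (2.19-fold, adjusted p = 0.00201). PRPF38B went the other way, at 1003 and 778 on the primordial arrays, 405 and 395.5 on the middle arrays, then 532 and 626 on the last. Its middle values were the lowest of the 6, and it fell by 1.11 ± 0.22 (adjusted p = 0.00292). Both calls held under every alternative run. PRPF18, a factor of the second catalytic step, read 1375 and 1148 on the middle arrays against 652 and 814 on the last arrays. PRPF18 fell by 0.77 ± 0.22 from middle to last (adjusted p = 0.0424). This call was lost with no filter (0.0584), quantile normalization (0.0515), centring (0.0998) or the replicate block (0.0580). It was also lost without the intensity trend (0.0682) and with the 4 arrays compared alone (0.0545). Leaving out 1 array at a time, it was lost without any array but last replicate 2. The fall was 0.65 without middle replicate 1 and 0.62 without last replicate 1. PRPF19, the scaffold ubiquitin ligase of the activated spliceosome, and the kinase PRPF4B had F-test adjusted p of 0.335 and 0.373.

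SR protein genes gave 1 higher and 2 lower calls of 11 between middle and primordial (27.3%, against 45.5% of all genes). None was called between last and middle (3 by limma's unadjusted p under 0.05), against 16% of all genes. Between last and primordial 1 was called in each direction (18.2%, against 32.9%). SRSF2, also known as SC35, read 8149 and 8810 on the primordial arrays, 3954 and 5277 on the middle arrays, then 5836 and 5122 on the last. Both primordial values stood above the other 4. SRSF2 fell by 0.89 ± 0.18 to the middle stage (1.85-fold, adjusted p = 0.00296), a call that held under every alternative. It fell by 0.63 from primordial to last, a call that was lost without the intensity trend (0.0700). That call was also lost without primordial replicate 1, primordial replicate 2 or last replicate 2. SRSF12, which opposes other SR proteins, had higher signal at each later stage. It read 297 and 251, then 395 and 372, then 651 and 542, with no overlap between any stages. The difference of last minus primordial was 1.08 ± 0.22 (2.11-fold, adjusted p = 0.00601) and was called under every alternative run. SRSF3 read 10533 and 8181, then 7388 and 8129, then 10208 and 8423, with overlapping primordial and last values and an F-test adjusted p of 0.328. SRSF7 had the smallest stage range of the 94 members, 0.02 (F-test adjusted p = 0.994).

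Calls of hnRNP genes were made only in the contrasts against primordial. Of 17, 1 was called higher and 5 lower in middle (35.3%), and 4 higher and 5 lower in last follicles (52.9%). None was called between last and middle (3 by limma's unadjusted p under 0.05). Over all genes the shares called in these comparisons were 45.5%, 32.9% and 16%. In the comparison of last with primordial the count of 9 was 3 without primordial replicate 1, 3 without primordial replicate 2 and 4 without last replicate 1; between middle and primordial the count of 6 was 3 without primordial replicate 2 and 4 without middle replicate 1. The split of those 6 calls depended on scaling: it was 4 higher and 2 lower after quantile normalization, and 1 higher and 7 lower after centring. HNRNPAB, an A/B-type hnRNP, read 5213 and 5333 on the primordial arrays, 1693 and 2736 on the middle arrays, then 3463 and 2416.5 on the last. Its primordial values were the highest, and the middle and last values overlapped. HNRNPAB fell by 1.29 ± 0.25 from primordial to middle (2.44-fold, adjusted p = 0.00283), called under every alternative. HNRNPA1, a splicing repressor that competes with SR proteins, read 5943 and 7311, then 3409 and 3929, then 3267 and 4616.5. It fell by 0.85 ± 0.20 to the middle stage (adjusted p = 0.00783). That call was lost without primordial replicate 2 (0.0680) or middle replicate 1 (0.0682), in a range of 0.000594 to 0.0682 over alternatives. HNRNPM, a pre-mRNA binding protein, read 3289.8 and 3407 on the primordial arrays against 2437 and 1508 on the last, and fell by 0.80 ± 0.26 (adjusted p = 0.0397). This call was lost with no filter (0.0674), quantile normalization (0.0778) or the replicate block (0.0603), and without the intensity trend (0.0771). It was also lost without primordial replicate 1, primordial replicate 2 or last replicate 2.

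Of the H group of hnRNPs, which bind runs of G, 2 genes were called lower and 1 higher in both contrasts against primordial, and HNRNPH3 was not called. HNRNPH1 read 14614 and 14323 on the primordial arrays, 9876 and 8385 on the middle arrays, then 9127 and 8862 on the last. Every later value lay below the primordial ones. HNRNPH1 fell by 0.68 ± 0.14 from primordial to last (1.61-fold, adjusted p = 0.00515), called under every alternative, and by 0.67 ± 0.14 to the middle stage (adjusted p = 0.00343), where quantile normalization alone ended the call (0.130, in a range of 0.000171 to 0.130). HNRNPH2, its close paralogue, read 1026 and 658 on the primordial arrays, 2239 and 1842 on the middle arrays, then 2277.5 and 1966.5 on the last. Its primordial values were the lowest. HNRNPH2 rose by 1.29 ± 0.24 to the middle stage (adjusted p = 0.00219) and by 1.35 ± 0.24 to the last stage (adjusted p = 0.00312), and both calls held under every alternative; its other tested probe set was also called higher in both. HNRNPF, of the same group, fell by 0.61 to the middle and by 0.54 to the last stage (adjusted p = 0.00725 and 0.0204). The first call was lost without primordial replicate 2 (0.0604) or with quantile normalization (0.0978), in a range of 0.00038 to 0.0978. The second was lost without primordial replicate 1 (0.0675), primordial replicate 2 (0.128) or last replicate 1 (0.0774) and without the intensity trend (0.0726), in a range of 0.00377 to 0.128. HNRNPA2B1 read 12223 and 11645, then 13163 and 12609, then 13099 and 11973. Its stage range was 0.11 (F-test adjusted p = 0.728; quantile normalization alone gave a call, at 0.0181 in a range of 0.0181 to 0.92). HNRNPK, a poly(C)-binding protein, rose by 0.62 from primordial to last (adjusted p = 0.0314). This call was lost with no filter (0.0629), centring (0.118) or means of probe sets (0.171), and without the intensity trend (0.0866). It was also lost without primordial replicate 1, last replicate 1 or last replicate 2. The other HNRNPK probe set was not called.

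**Figure D3:**
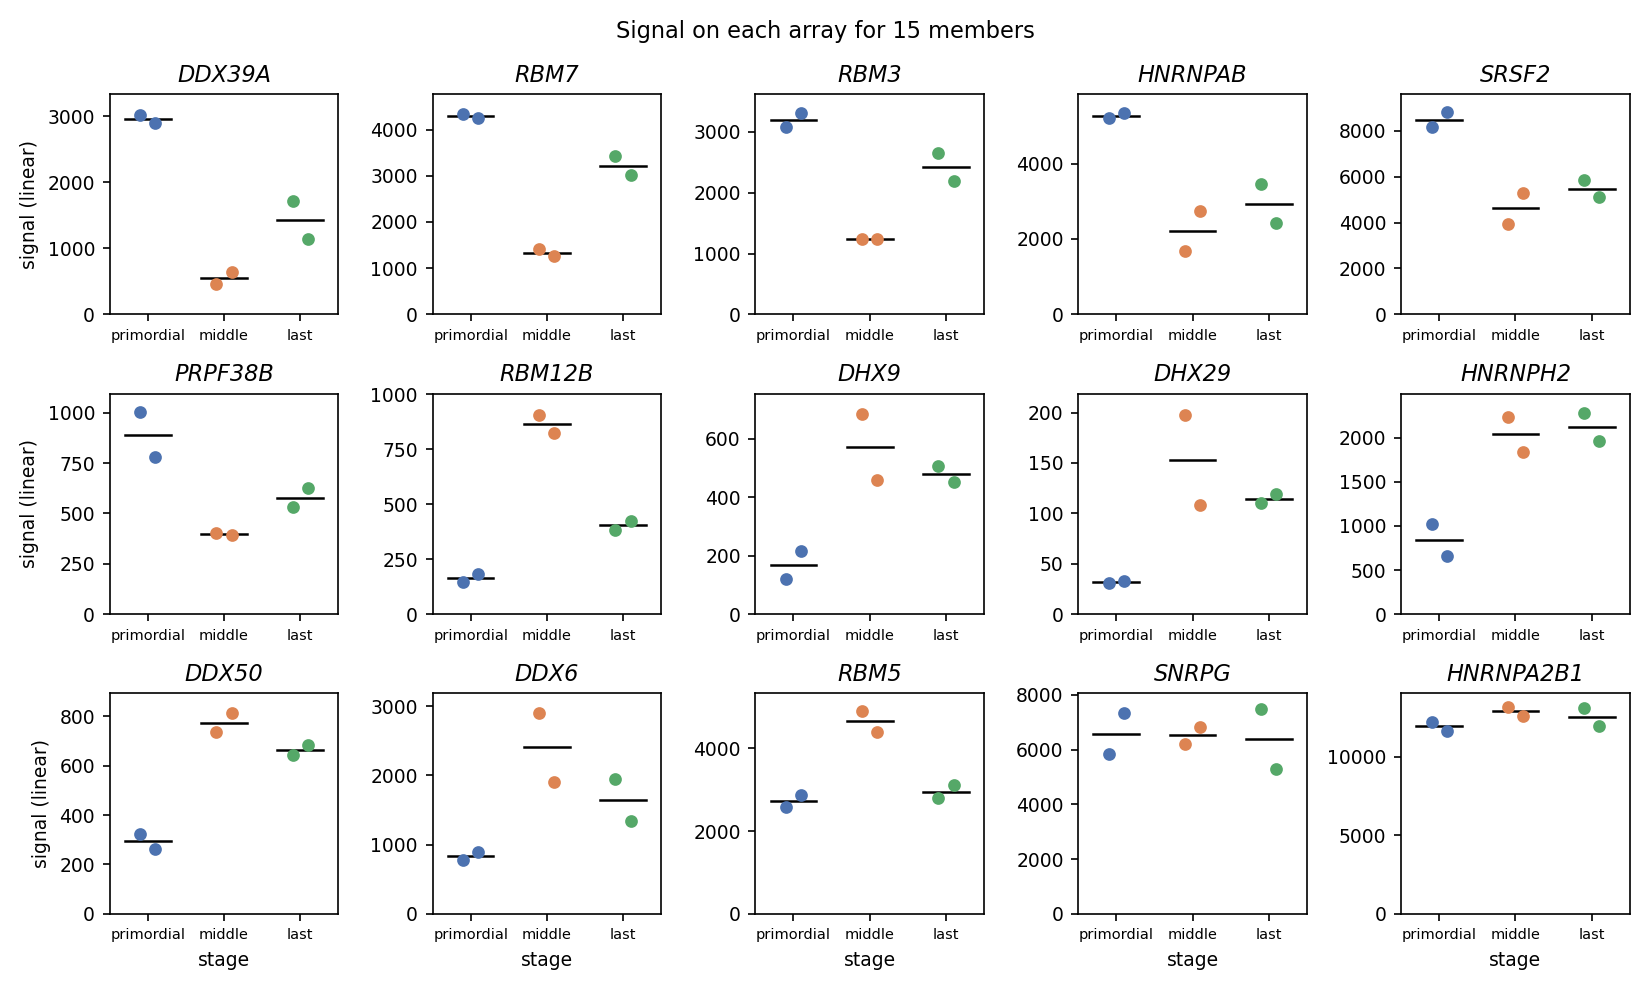
Signal on each array (linear axis from 0) for 15 members, 1 panel per gene, with the stages from primordial to last along each axis. Points are arrays and bars are the means of 2 arrays; DDX39A, RBM7 and RBM3 dip on the middle arrays, RBM12B and RBM5 peak there, and SNRPG and HNRNPA2B1 stay level.

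Calls for RBM genes went in both directions with the values as deposited. Of 19, 6 were called higher and 5 lower in middle than in primordial follicles (57.9%, against 45.5% of all genes). Between last and middle 2 were called higher and 4 lower (31.6%, against 16%). Between last and primordial 1 was called higher and 3 lower (21.1%, against 32.9%). The first count of 11 was 7 without primordial replicate 2 and 5 without middle replicate 1, the second count of 6 was 1 without middle replicate 1 and 4 without last replicate 1, and the third count of 4 was 1 without either primordial array. Between middle and primordial, quantile normalization gave 5 higher and 6 lower calls, whereas centring gave 1 higher, RBM12B, and 10 lower. RBM7, an adaptor that brings RNA to the nuclear exosome, read 4344 and 4256 on the primordial arrays, 1415 and 1262 on the middle arrays, then 3422 and 3018 on the last. No stage overlapped another. RBM7 fell by 1.67 ± 0.17 from primordial to middle (3.19-fold, adjusted p = 8.44e-05) and rose by 1.26 ± 0.17 from middle to last (2.39-fold, adjusted p = 0.00131). Of the 8 calls between last and middle, it was the only one to hold under every alternative.

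RBM3, induced by mild cold, followed a like course. The summed stress and immediate-early genes were also lowest on the middle arrays, and their part in the values of RBM7, RBM3 and DDX39A was not tested. It read 3086 and 3314.5, then 1236 and 1239, then 2661 and 2189.6. RBM3 fell by 1.36 ± 0.18 to the middle stage (adjusted p = 0.000336) and rose by 0.95 ± 0.18 to the last stage (adjusted p = 0.00678), the second call being lost without middle replicate 1 (0.0574, the highest of a range from 0.00381). CIRBP, the other cold-inducible RNA-binding protein and no member here, read 316 and 358, then 983 and 655.5, then 597 and 666, lowest where RBM3 was highest. CIRBP rose by 1.22 ± 0.24 from primordial to middle (adjusted p = 0.00313) with the values as deposited, and no alternatives are given for it. RBM18 also fell, by 1.14 ± 0.19 to the middle stage (adjusted p = 0.00126), from 1538 and 1648 to 690.2 and 737.

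Other RBM genes peaked on the middle arrays. RBM12B, an RRM protein of little described function, read 145 and 182 on the primordial arrays, 907 and 825 on the middle arrays, then 383 and 423 on the last. No stage overlapped another. RBM12B rose by 2.30 ± 0.22 (4.93-fold, adjusted p = 6.58e-05) from primordial to middle and remained 1.23 ± 0.22 above primordial in the last stage (adjusted p = 0.00334), both under every alternative. It fell by 1.07 ± 0.22 from middle to last (adjusted p = 0.0109), a call lost without middle replicate 1 (0.101, the highest of a range from 0.00781). RBM5, a regulator of the splicing of apoptosis genes, read 2575 and 2867, then 4906 and 4394.5, then 2791 and 3115. It rose by 0.77 ± 0.17 (adjusted p = 0.00451), which only centring of each array ended (0.108, the highest of a range from 0.00139). Its fall by 0.65 ± 0.17 to the last stage (adjusted p = 0.0266) was not called with centring (0.0854) or without the intensity trend (0.0710). That fall was also not called without middle replicate 1, middle replicate 2 or last replicate 1. Unlike these genes, RBM19, a factor of ribosome assembly, had its highest stage mean on the primordial arrays. It read 531 and 502 there, 291 and 517 on the middle arrays, then 293 and 229 on the last. RBM19 fell by 0.95 ± 0.29 from primordial to last (adjusted p = 0.0318). Its call was lost with no filter (0.0614) or means of probe sets (0.0599), and without primordial replicate 1, primordial replicate 2 or last replicate 2. The other tested RBM19 probe set was called lower in middle than in primordial follicles (-1.12), and was not called between last and primordial (-0.53).

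RBM25, which regulates the splicing of BCL2L1, read 1326 and 1174 on the primordial arrays, 2619.9 and 2166 on the middle arrays, then 760.0 and 1218 on the last. Both middle values exceeded all others. RBM25 fell by 1.29 ± 0.25 from middle to last (2.45-fold, adjusted p = 0.00732), a call lost without middle replicate 1 (0.0908, the highest of a range from 0.00294). It rose by 0.92 ± 0.25 from primordial to middle (adjusted p = 0.0127), lost without primordial replicate 2 (0.0762), without middle replicate 1 (0.0971) or with centring (0.111), in a range of 0.0034 to 0.111. RBM26 read 2363 and 2092, then 5230.1 and 3377, then 2248 and 2253. It rose by 0.91 ± 0.22 and then fell by 0.90 ± 0.22 (adjusted p = 0.0077 and 0.0224), and without middle replicate 1 neither was called (0.0620 and 0.163). The rise was also lost without primordial replicate 2 or with centring (0.0915). The fall was also lost without either last array, with centring (0.0534), with means of probe sets (0.185) or without the intensity trend (0.0557). Of the 3 tested RBM26 probe sets, 2 were called higher in middle than in primordial follicles, with differences of 0.17 to 1.17. Between last and middle, 1 of them was called lower, with differences of -0.90 to -0.11. Over all alternatives the adjusted p of the rise ran from 0.00478 to 0.0915 and that of the fall from 0.0158 to 0.185. RBM8A, a core protein of the exon junction complex, had an F-test adjusted p of 0.168, and of 0.0170 with centring, in a range of 0.0170 to 0.522. RBM39 had an F-test adjusted p of 0.244, and of 0.0349 with means of probe sets, in a range of 0.0349 to 0.772. Of the 3 RBM39 probe sets, 2 were called lower in last than in primordial follicles, and the one used was not.

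Of the 4 DHX helicases, 2 were called higher and 1 lower in both contrasts against primordial. The share was 75% in both, against 45.5% of all genes for middle and 32.9% for last. In both, DHX29 was 1 of the genes called higher. None was called by limma between last and middle, with 0 at an unadjusted p under 0.05, against 16% of all genes called. DHX9, also called RNA helicase A, read 121 and 215 on the primordial arrays, 683 and 457.5 on the middle arrays, then 506 and 451 on the last. All later values stood above the primordial ones. DHX9 rose by 1.69 ± 0.30 to the middle stage (3.23-fold, adjusted p = 0.0018) and by 1.47 ± 0.30 to the last stage (2.77-fold, adjusted p = 0.00626), under every alternative. DHX29, a helicase of translation initiation on structured mRNAs, was dim, at 30.9 and 33.1, then 198 and 108, then 110.4 and 119. It is the 1 tested member with a stage mean under the filter on dim probe sets, which it passed only through its middle and last arrays, so its calls are no support for a change in these genes. With no filter its adjusted p was 0.00981 between middle and primordial and 0.0351 between last and primordial. DHX29 rose by 1.76 ± 0.38 to the middle stage (adjusted p = 0.0046), with an adjusted p of 0.0502 without middle replicate 1, the highest of a range from 0.00241. Its difference of 1.44 ± 0.38 between last and primordial (adjusted p = 0.0182) was lost without each of the 4 arrays compared, with adjusted p of 0.0602 to 0.0662, and with quantile normalization (0.0914), in a range of 0.00965 to 0.0914. DHX15, which releases the intron lariat, read 5793.5 and 6137, then 4077 and 4401, then 3749.8 and 3674. DHX15 fell by 0.68 from primordial to last (adjusted p = 0.00786), lost without primordial replicate 2 (0.0620, the highest of a range from 0.00226). Its fall by 0.49 to the middle stage (adjusted p = 0.0226) was not called with quantile normalization (0.269) or without the intensity trend (0.0721). That fall was also not called without primordial replicate 1, primordial replicate 2 or middle replicate 1. DHX30, of mitochondrial ribosome assembly, had an F-test adjusted p of 0.660.

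DDX genes gave 3 higher and 5 lower calls of 17 between middle and primordial (47.1%, against 45.5% of all genes). Between last and middle there was 1 higher call (5.88%, against 16%). Between last and primordial 2 were called higher and 6 lower (47.1%, against 32.9%). The count of 8 in the first comparison was 5 without primordial replicate 2 and 5 without middle replicate 1, and the count of 8 in the third was 3 and 2 without primordial replicate 1 and 2. DDX39A, an mRNA export helicase, had the widest stage range of the 94 members. It read 3020.0 and 2895 on the primordial arrays, 457 and 645.5 on the middle arrays, then 1718 and 1138 on the last. No stage overlapped another. DDX39A fell by 2.41 ± 0.25 from primordial to middle (5.31-fold, adjusted p = 9.85e-05), under every alternative, and its other probe set was called lower too. It rose by 1.34 ± 0.25 from middle to last (adjusted p = 0.00676; 0.0809 without middle replicate 1, the highest of a range from 0.00451). Its paralogue DDX39B, or UAP56, read 5934 and 5913, then 3826 and 5135, then 3803 and 4291. DDX39B fell by 0.55 from primordial to last (adjusted p = 0.0407). This call was lost with no filter (0.0695), quantile normalization (0.0790) or means of probe sets (0.274), and without the intensity trend (0.101). It was also lost without any 1 of the 4 arrays compared, where the fall was 0.46 to 0.64. DDX19A, a helicase of mRNA export, read 236 and 314 on the primordial arrays against 139 and 105 on the middle arrays, and fell by 1.08 ± 0.33 (adjusted p = 0.0256). Its call was lost with no filter (0.0536), and without primordial replicate 2, middle replicate 1 or middle replicate 2.

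Of the DDX genes linked to ribosome assembly, DDX27, DDX49, DDX55 and DDX56 were called in no comparison, with differences of -0.88 to -0.03 between middle and primordial. DDX21, a nucleolar helicase, read 3719 and 3266 on the primordial arrays, 2313 and 2158 on the middle arrays, then 1701 and 1859 on the last. Its stages did not overlap. DDX21 fell by 0.96 ± 0.17 from primordial to last (1.95-fold, adjusted p = 0.00308), under every alternative. DDX47 read 1125 and 1227, then 626 and 661, then 611.5 and 634. DDX47 fell by 0.85 ± 0.19 to the middle stage (adjusted p = 0.00579), under every alternative. It fell by 0.90 ± 0.19 to the last stage (adjusted p = 0.00728), a call lost without primordial replicate 2 (0.0583, the highest of a range from 0.003). DDX51 fell by 1.14 ± 0.30 to the middle stage (adjusted p = 0.013), from 342 and 382 to 114.5 and 208, a call lost without primordial replicate 2 (0.0735) or middle replicate 1 (0.0962), in a range of 0.00242 to 0.0962. DDX50, the nucleolar paralogue of DDX21, went the other way. It read 324 and 264, then 735 and 815, then 645 and 683. DDX50 rose by 1.36 ± 0.21 to the middle stage (2.56-fold, adjusted p = 0.000848) and by 1.14 ± 0.21 to the last stage (2.2-fold, adjusted p = 0.00377), both under every alternative. DDX6, which represses translation and promotes decapping, read 776 and 899, then 2898 and 1912, then 1942 and 1348. DDX6 rose by 1.48 ± 0.26 to the middle stage (2.78-fold, adjusted p = 0.00153), under every alternative.

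DDX58, or RIG-I, a sensor of viral RNA, was set apart by a single array. It read 150.3 and 260.0 on the primordial arrays, 139 and 169.7 on the middle arrays, then 89.8 and 966 on the last, so both its lowest and its highest values were of the last stage. The ratio of last replicate 2 to last replicate 1 was 10.8 for DDX58 and 11.2 for DDX60, an interferon-induced helicase, at 132.7 and 11.9. DDX60 did not pass the filter, and its 11.9 lies under the 16 added to each signal, so its ratio is imprecise. The median ratio over the tested members, which do not include DDX60, was 0.913 and the next highest after DDX58 was 1.70. The F-test for DDX58 gave an adjusted p of 0.587, and 0.00136 without last replicate 1, in a range of 0.00136 to 0.785. In the fit without last replicate 1, last replicate 2 alone stands for its stage, and the spread comes from the other stages. Of 16 listed genes of RNA sensing and the interferon response, 13 were on the array, all 13 were higher on last replicate 2 than on last replicate 1 (median ratio 6.27), and 9 were highest there of all arrays. Their signals summed to 12524 and 17096 on the primordial arrays, 6433 and 8685 on the middle arrays, then 4389 and 31679.5 on the last. What set this array apart was not tested.

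**Figure D4:**
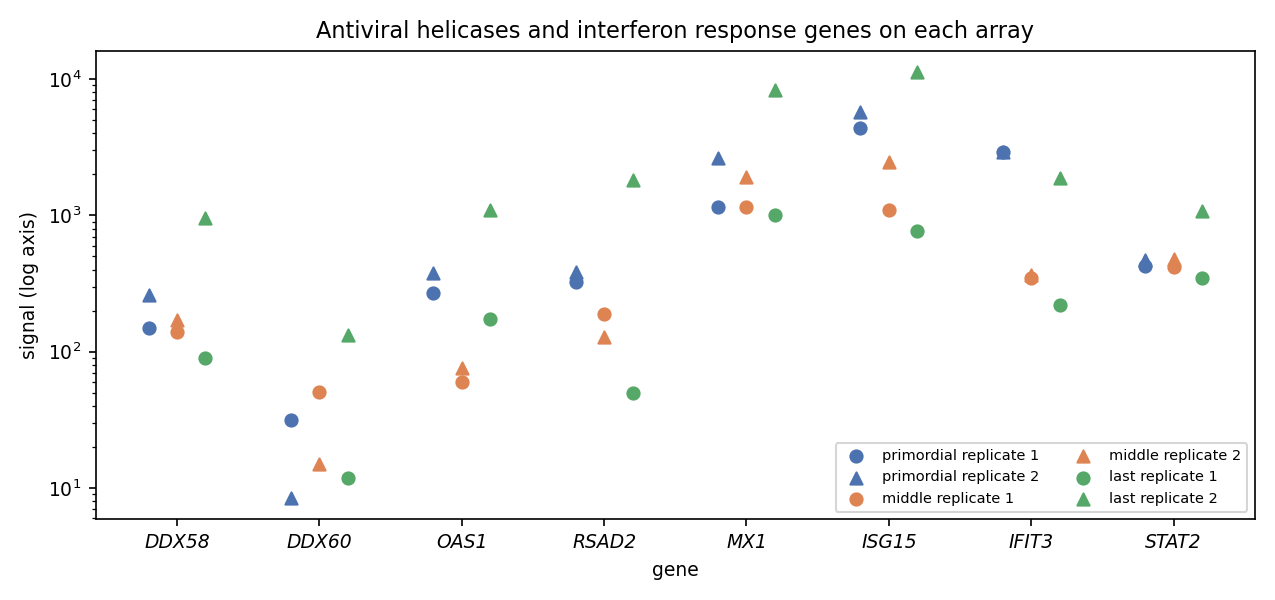
Signal on each array (log axis) of the helicases DDX58 and DDX60 and of 6 interferon response genes, with colours for stages, circles for replicate 1 and triangles for replicate 2. For each gene last replicate 2 stands above last replicate 1, by a ratio of 10.8 for DDX58 and 11.2 for DDX60. The DDX60 ratio is over a signal of only 11.9 and is imprecise.

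Probe sets of 1 gene did not always move together. Of the members, 27 had 2 or more tested probe sets, which gave 39 pairs of the probe set used and a dimmer one. Limma fitted to the difference within each array called 6 of the 39 pairs between middle and primordial, against 24.7% of the 1529 such pairs over all genes. It called 0 between last and middle, against 5.1%, and 6 between last and primordial, against 16.2%, so the members' counts are no result about these genes. At an unadjusted p under 0.05 there were 4 such pairs between last and middle. Without middle replicate 1 the first count was 3, and without last replicate 1 the third count was 3. This test was added after the values had been seen.

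The gene with the widest gap was SRSF6, an SR protein gene with 6 probe sets. The probe set used for it read 3142 and 3152, then 2387 and 2458, then 2580.4 and 3264. Another read 241 and 346, then 1893 and 864, then 918 and 1335. By stage means the first was highest on the primordial arrays, although last replicate 2 read higher than either, and the second was lowest there. The difference between them changed by 2.46 ± 0.36 from primordial to middle (adjusted p = 0.00124) and by 2.0 to the last stage (adjusted p = 0.00573), under every alternative run. Of the 6 SRSF6 probe sets, 1 was called higher and none lower in each of these comparisons.

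For SNRPN, which lies in an imprinted locus in mammals and encodes a relative of SNRPB, the probe set used read 2201 and 2298.5, then 1753 and 2039, then 2179 and 2091. The other read 361 and 322, then 788 and 749, then 647 and 645. The primordial values were the highest of the 6 in the brighter set, which was called in no comparison, and the lowest of the 6 in the dimmer one. The difference between both changed by 1.38 ± 0.23 from primordial to middle (adjusted p = 0.0025), under every alternative. A pair of dimmer SRSF10 probe sets moved up against the one used by 1.07 and 0.85 over the same step (adjusted p = 0.0122 and 0.0257). The first of these was lost without primordial replicate 1 (0.0711) or middle replicate 2 (0.0635), in a range of 0.00726 to 0.0711, and the second without primordial replicate 1 (0.0528), primordial replicate 2 (0.119) or middle replicate 1 (0.161), in a range of 0.0167 to 0.161. For SRSF11, a dimmer set moved up by 0.90 (adjusted p = 0.0252). This call was lost without the intensity trend (0.0573), and without primordial replicate 1, primordial replicate 2 or middle replicate 1.

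Opposite gaps were seen for SF3B1 and SNRPA1 between last and primordial. The dimmer SF3B1 probe set read 156 and 166, then 214 and 189.8, then 210.1 and 256. It was not itself called, while the one used was called lower. The difference between both changed by 1.16 (adjusted p = 0.00782, under every alternative). The dimmer SNRPA1 probe set, for the U2 snRNP protein A′, read 602 and 751, then 276 and 240.1, then 138 and 132. The SNRPA1 probe set used read 2907 and 2264, then 1695 and 1786, then 2535 and 1702. The dimmer set fell against it by 1.88 from primordial to last (adjusted p = 0.00389), under every alternative. Which transcripts each probe set detects was not tested.

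**Figure D5:**
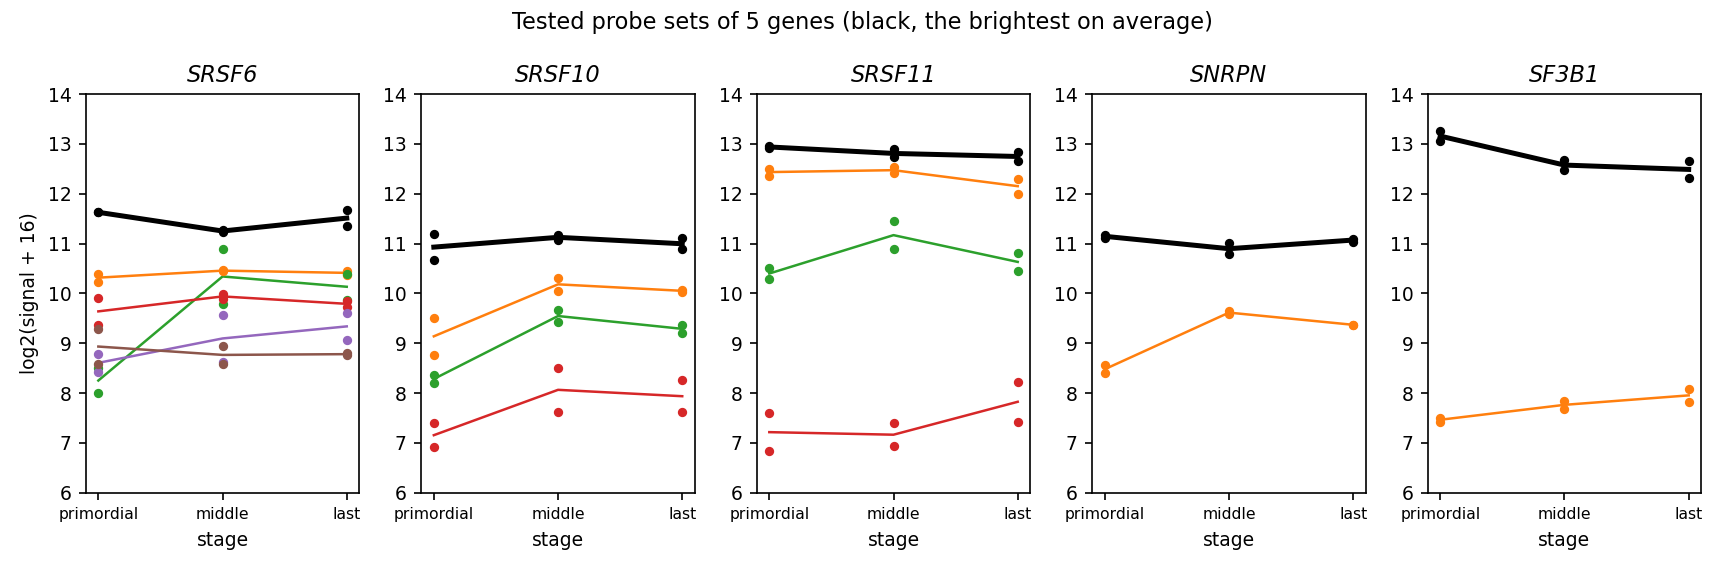
Log2(signal + 16) of every tested probe set of 5 genes, by stage. Points are arrays and lines join stage means; the black line is the probe set used, and the SRSF6 set that rises from the primordial to the middle stage changed by 2.46 against it.

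Other genes of RNA processing were grouped in lists drawn up by function. Between middle and primordial, calls were made for 38.5% of the tested spliceosome proteins outside the named families, 43.3% of the splicing regulators and kinases, 50% of the exon junction, export and decay genes and 33.3% of the other helicases, beside 45.5% of all genes. Between last and middle the shares were 10.3%, 10%, 4.55% and 0%, beside 16%, and between last and primordial 12.8%, 20%, 36.4% and 33.3%, beside 32.9%. These lists are described only, with no test between them. Their splits, medians and named genes are given for the values as deposited, with no alternatives beside them. Among the 39 tested spliceosome proteins outside the named families, 11 were called higher and 4 lower in middle than in primordial follicles (median 0.27), 4 lower in last than in middle (median -0.16), and 4 higher and 1 lower in last than in primordial (median 0.11). SNW1, a component of the active spliceosome, read 469 and 474, then 2148 and 1266, then 1424 and 986, and rose by 1.77 ± 0.28 (adjusted p = 0.000935). GEMIN2, of the SMN complex that loads Sm rings, read 507 and 643, then 1617 and 1631, then 1488 and 1525, and rose by 1.48 ± 0.20 (adjusted p = 0.000355). Its partner GEMIN6 rose by 1.59 ± 0.24 (adjusted p = 0.000712).

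Of 30 tested splicing regulators and SR protein kinases, 8 were called higher and 5 lower between middle and primordial (median 0.03), 1 higher and 2 lower between last and middle, and 2 higher and 4 lower between last and primordial. ESRP1, an epithelial splicing regulator, read 25.2 and 37.2 on the primordial arrays, 1379 and 1119 on the middle arrays, then 43.8 and 100.5 on the last. High signal was thus seen on the middle arrays only among these 6, the arrays with the highest sums of both oocyte and surface epithelium markers. ESRP1 passed the filter on dim probe sets only through its middle arrays, so its differences of 4.75 from primordial to middle and -3.91 from middle to last are given as a description, with no test. PTBP1, which represses exons through pyrimidine tracts, read 6274 and 6725.5, then 2053 and 2709, then 3793 and 3368.5, and fell by 1.46 ± 0.18 from primordial to middle (adjusted p = 0.000253). Among 22 tested genes of the exon junction complex, export and decay, 6 were called higher and 5 lower between middle and primordial (median 0.10), 1 lower between last and middle, and 3 higher and 5 lower between last and primordial. NXF1, the main mRNA export receptor, read 4718 and 4207, then 1140.1 and 1088, then 1343 and 1553. NXF1 fell by 1.98 ± 0.18 from primordial to middle (adjusted p = 4.8e-05). Of 6 tested helicases outside the DDX and DHX families, 1 was called higher and 1 lower between middle and primordial, none between last and middle by limma (0 at an unadjusted p under 0.05), and 2 lower between last and primordial.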

How the data were processed

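Signals of 6 single-channel Affymetrix porcine arrays were analysed. Per the submitters' processing notes, the values deposited by the authors came from GCOS (version and settings: not given in the sources used here). For 24123 probe sets the deposited values are linear intensities, whose 2%-trimmed mean was 500.1 on every array. The 124 control probe sets were left out. Symbols come from the platform annotation, and all 153 member probe sets matched RefSeq by gene identifier.

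Values were taken as log2(signal + 16), and probe sets with a mean signal under 91.3, the dimmest 40%, were dropped, leaving 14399. Limma 3.58.1 in R 4.3.3 (lmFit, eBayes with an intensity trend) was fitted to all 6 arrays without a replicate block, with 3 residual and 6.33 prior degrees of freedom. Tests were two-sided, with Benjamini-Hochberg adjustment and a threshold of 0.05. Tables and figures used Python 3.11.15, pandas 2.3.3, numpy 2.4.6 and matplotlib 3.10.9. The fits were tested on simulated data.

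The members and lists were chosen with earlier results of these data known. Named members were, per comparison, the 8 largest called differences in each direction without replicate overlap, and per subfamily the 2 with the highest mean signal and the 2 with the smallest F-test p, with 16 symbols in any case, members whose probe sets differ, and 3 called genes per other list and comparison; DDX25, DDX27, DDX49, DDX54, DDX55, DDX56, DDX60, HNRNPF, HNRNPH3 and SRSF7 were added after their values were seen. Alternatives were pseudocounts of 1 and 64, no filter, a 60% filter, quantile normalization, median centring, a replicate block, means of probe sets, no intensity trend, leaving out each array, and the 4 arrays compared alone.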

Additional observations from a re-analysis of the deposited data

How the results depend on the processing

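With 2 arrays per stage, array number limits precision. Of the named members' calls, 14 of 27 held under every alternative between middle and primordial, 1 of 8 between last and middle and 7 of 23 between last and primordial; none reversed. Leaving out 1 array at a time, calls ranged from 21 to 40 between middle and primordial (9 to 17 higher, 12 to 23 lower; median -0.19 to -0.03), from 1 to 8 between last and middle (1 to 5 higher, 0 to 4 lower; median -0.05 to 0.05), from 9 to 25 between last and primordial (5 to 9 higher, 3 to 16 lower; median -0.14 to -0.03) and from 20 to 38 by the F-test. Pairs of unequal probe sets ranged from 3 to 6, 0 to 0 and 3 to 7 in the same order of comparisons.

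Median centring gave 7 higher and 43 lower calls (median -0.52), then 6 and 2 (0.16), then 6 and 28 (-0.28). It shifts all probe sets of an array alike, so these splits are no result about the members. Quantile normalization moved the first median to 0.05 (0.046). Without the intensity trend there were 5 calls between last and middle (2 lower) and 16 between last and primordial (9 lower). Dropping 60% of probe sets gave 1 unequal pair between last and middle. With the replicate number as a block, members' calls numbered 36 (16 higher, 20 lower), 7 and 24, and the unequal pairs 10, 2 and 6. Same-numbered arrays' deviations correlated at 0.059, 0.032 and -0.048. With 2 arrays a stage, these values cannot show whether same-numbered arrays share a source. The causes were not tested.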
